A study of Bos taurus with 2 samples.

Results

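Fibroblast growth factor (FGF) signalling was followed through 9 genes in cultured bovine satellite cells, the stem cells of skeletal muscle. The genes were the receptors FGFR1, FGFR2, FGFR3 and FGFR4, the ligands FGF2 and FGF7, and the Sprouty genes SPRY1, SPRY2 and SPRY4. They were chosen by symbol, as 4 receptors, 2 ligands and 3 Sprouty genes, and all 9 were found among the 21867 genes of the feature list, of which 16816 had at least 1 count. Another 82 genes that carry, modify or answer the signal were listed beside them, of which 79 were in the feature list and 72 had a count.

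FGF ligands bind receptor tyrosine kinases together with heparan sulphate chains on the cell surface, and the bound receptor activates RAS and the kinase ERK through the adaptor FRS2. Sprouty proteins are made in answer to this signal and dampen it. In muscle, FGF2 is a mitogen that keeps satellite cells dividing and holds back their fusion, FGFR1 and FGFR4 are the receptors usually found on these cells, and FGF7 is made mainly by connective tissue cells and acts on a splice form of FGFR2 found on epithelium.

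The cells came from the longissimus muscle of 1 Holstein bull calf aged 2 weeks. They were released with pronase and grown for 1 week in medium with fetal bovine serum, and received no treatment. A pair of 10x Genomics libraries, replicates 1 and 2, was prepared from the same cells, so the spread between them is that of library preparation and holds no difference between animals. After merging by the authors, the libraries held 9939 and 9157 cells and 145631299 and 137818568 unique molecular identifiers (UMIs). Each UMI stands for 1 captured RNA molecule, and 27 barcodes occurred in both libraries. The study divided the cells into 15 clusters, of which it called 4, 5 and 8 satellite cells, 1 and 2 myoblasts, 3 and 12 myocytes, and 7 and 9 fibro-adipogenic progenitors, the precursors of fat and connective tissue cells in muscle. It left 6, 10, 11, 13, 14 and 15 without an identity.

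Levels are given as UMIs of a gene per 10000 UMIs of its library and cluster, as the mean ± SD of the 2 libraries. Marker genes were read on the same scale. MYOG, which drives differentiation, was at 18.6 in cluster 12 and 6.68 in cluster 3 and at 0.108 in cluster 8. MYOD1, the myoblast determination factor, was at 5.18 in cluster 1 and 6.72 in cluster 2 against 0.892 in cluster 8. MYF5 is another myoblast marker of the study. Its level was 1.565 ± 0.109 in cluster 8, 1.548 ± 0.0720 in cluster 1 and 0.702 ± 0.0481 in cluster 2. MYF5 thus did not separate cluster 1 from cluster 8, and it was lower in cluster 2 than in both. With no correction for cell depth, it had a UMI in 71.4 ± 2.26% of the cells of cluster 8. These shares were 70.0 ± 0.913% in cluster 1 and 55.1 ± 0.261% in cluster 2. The satellite cell marker PAX7 was scarce in every cluster, at 0.0119 or less. PDGFRA, the marker of fibro-adipogenic cells, was at 1.58 in cluster 9 and 1.48 in cluster 7, but cluster 7 also carried the embryonic myosin MYH3 at 4.74, against 0.125 in cluster 9, and its cells had a median of 1389 UMIs. Clusters 7, 13, 14 and 15 had medians under 5000 UMIs per cell, and the other 11 clusters are called deep below. Among the deep ones cluster 10 had by far the lowest median, 5398.5 UMIs, and the next was 12929 in cluster 1. SOX10 of glia had no UMI and PTPRC of leukocytes had 1.

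FGFR4, a receptor tied to the myogenic programme, differed 11.2-fold between its highest and lowest deep clusters. Cluster 1 had a level of 0.994 ± 0.0246 and cluster 2 one of 0.882 ± 0.0138, and clusters 6 and 10 stood at 0.711 ± 0.0116 and 0.710 ± 0.0755. Cluster 4 followed at 0.566 ± 0.00974, then 5 at 0.375 ± 0.0508, 3 at 0.372 ± 0.0329 and 8 at 0.284 ± 0.00937. The lowest deep clusters were 11 at 0.219 ± 0.0243, 12 at 0.133 ± 0.00177 and 9 at 0.0885 ± 0.00330. FGFR4 was thus highest in the myoblast clusters and lower in the satellite cell, myocyte and fibro-adipogenic clusters named by the study, apart from cluster 7. The library values of 6 and 10 overlapped, as did those of 5 and 3, while clusters 12 and 9 stood below all others. Without called doublets, barcodes that may hold 2 cells, the level in cluster 9 was 0.0349 ± 0.00775. Shallow clusters 7 and 13 were at 0.958 ± 0.235 and 0.961 ± 0.220, on 208 and 98 UMIs.

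FGFR1, the other receptor common on satellite cells, had its highest deep level in cluster 9, at 0.307 ± 0.0182, followed by cluster 8 at 0.270 ± 0.00189. The lowest were cluster 3 at 0.110 ± 0.00541 and cluster 12 at 0.0459 ± 0.00969. The range over deep clusters was 6.67-fold. Of 14 pairs of clusters next to each other in its order, 9 had overlapping library values, and these included most of the middle of the order, from 0.270 in cluster 8 to 0.188 in cluster 2. The shallow cluster 7 was at 0.669 and 0.468 in its libraries, but its fitted difference from cluster 9 was 0.35 ± 0.17 in log2 (adjusted p = 0.115) and ran from -0.17 to 0.86 over the settings tried.

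FGFR2, whose splice forms bind different sets of FGFs, had few UMIs, 1521 in all. Over deep clusters it was highest in cluster 10, at 0.130 and 0.120 in the 2 libraries, and lowest in cluster 12, at 0.0179 and 0.0176. Cluster 10 is the least deep of them, and as mean UMIs per cell FGFR2 was at 0.096 there and 0.172 in cluster 9. The shallow clusters 7, 13, 15 and 14 were at 0.169, 0.1235, 0.121 and 0.0439, on 38, 12, 3 and 6 UMIs. How far depth shapes these levels was not tested. The library values of 12 of 14 neighbouring pairs overlapped. FGFR3, better known from cartilage, had 233 UMIs in all. It was at 0.0200 ± 0.00267 in cluster 9, on 53 UMIs, and no other deep cluster exceeded 0.0129.

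**Figure D1:**
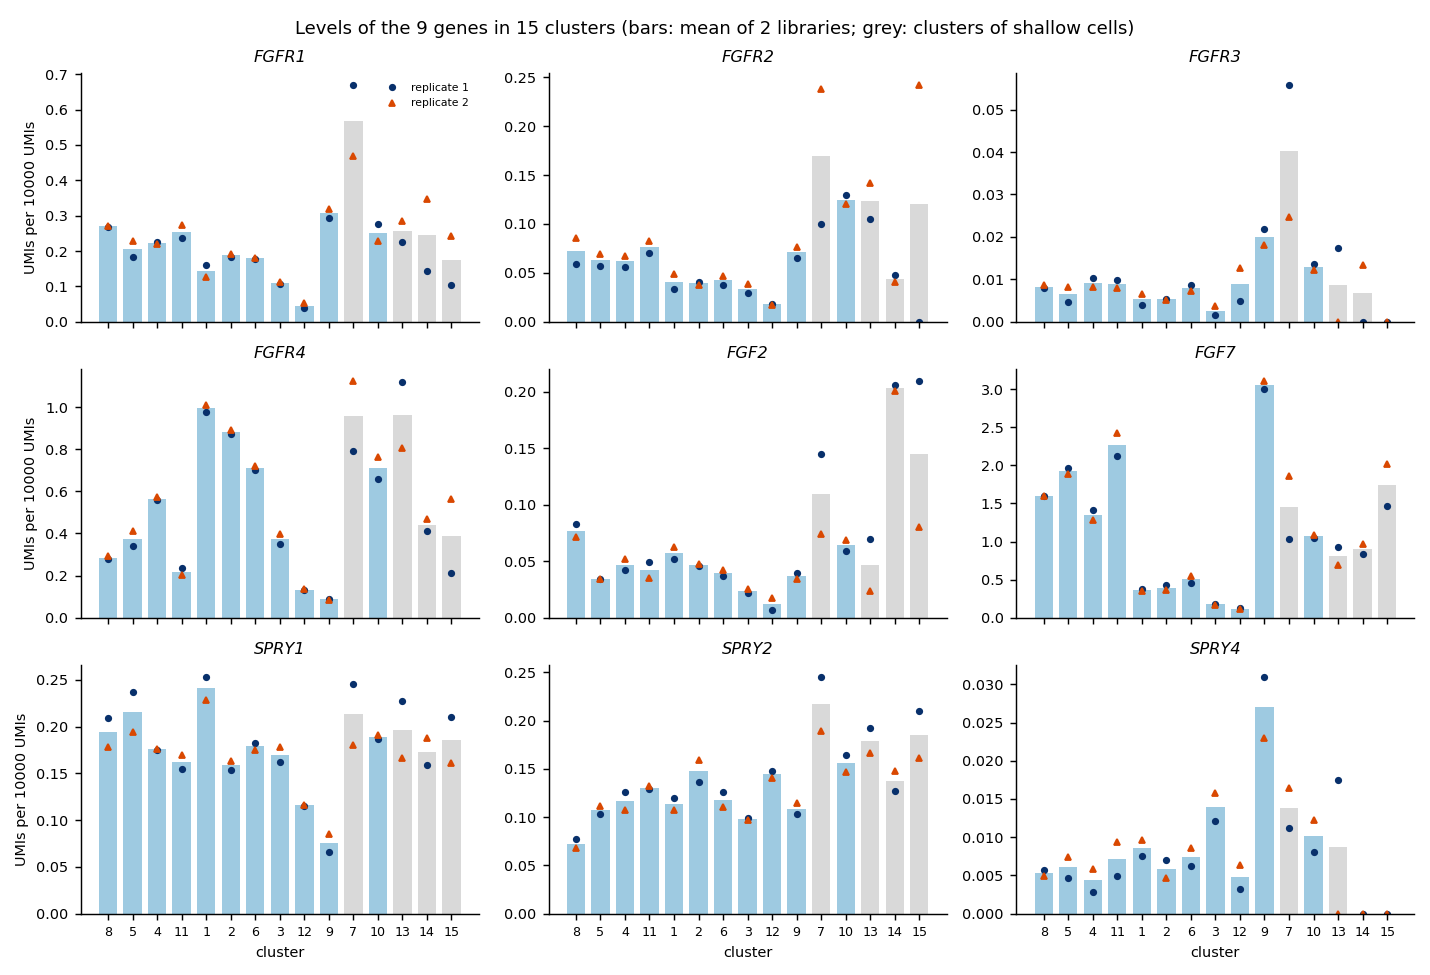
Level of each of the 9 genes (UMIs per 10000 UMIs, vertical axis, from 0) in the 15 clusters (horizontal axis). Bars are means of 2 libraries, points the libraries, and grey bars the clusters of shallow cells. FGFR4 is highest in clusters 1 and 2 among the deep clusters and FGF7 in clusters 9 and 11, while both are low in cluster 12.

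FGF7 had the widest range, 25.4-fold over the deep clusters. Cluster 9 was at 3.06 ± 0.0709, cluster 11 at 2.27 ± 0.207, 5 at 1.92 ± 0.0561, 8 at 1.60 ± 0.00479, 4 at 1.35 ± 0.0974 and 10 at 1.07 ± 0.0249. It was 0.502 ± 0.0616 in cluster 6, 0.394 ± 0.0433 in 2, 0.360 ± 0.0213 in 1, 0.176 ± 0.00717 in 3 and 0.120 ± 0.0118 in 12. Without called doublets it was 0.0776 in cluster 12. FGF7 was therefore high in the fibro-adipogenic cluster 9 and in the clusters called satellite cells, and low in those called myoblasts and myocytes. The libraries of clusters 2 and 1 overlapped, and those of the other neighbours in this order of deep clusters did not.

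FGF2, the mitogen of satellite cells, had 1253 UMIs in all. It was highest among deep clusters in cluster 8, at 0.0827 and 0.0712 in the libraries, and lowest in cluster 12, at 0.00650 and 0.0176, on 15 UMIs. The middle of its order was flat, since the means of clusters 4, 2, 11, 6 and 9 lay between 0.0470 and 0.0370, with overlapping libraries from each to the next. The shallow cluster 14 was at 0.206 and 0.201, on 28 UMIs, above every deep cluster. In a RefSeq annotation of another assembly FGF2 overlaps NUDT6, FGF7 overlaps FAM227B, SPRY1 overlaps the protein-coding LOC132342596 and FGFR2 a long non-coding RNA gene. Whether the counting used strand is not given in the sources used here, so reads of such neighbours may be shared.

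SPRY1, which satellite cells need to return to rest, was at 0.241 ± 0.0174 in cluster 1 and at 0.0754 ± 0.0130 in cluster 9, a 3.23-fold range over deep clusters. Between these, cluster 12 stood apart at 0.116 ± 0.000840, and the libraries of 12 of 14 neighbouring pairs overlapped. SPRY2, a further inhibitor of receptor signalling, was the most even of the 7 genes with over 1000 UMIs. Its deep levels spanned 2.14-fold, from 0.156 ± 0.0128 in cluster 10 to 0.0723 ± 0.00675 in cluster 8. The shallow clusters 7, 15, 13 and 14 were at 0.217, 0.1855, 0.179 and 0.137, on 45, 4, 18 and 19 UMIs. How far depth shapes the levels of SPRY2 was not tested. SPRY4, with 264 UMIs, was highest in cluster 9 at 0.0310 and 0.0230 and next in cluster 3 at 0.0122 and 0.0158. It had no UMI in clusters 14 and 15, whose small totals allow up to 0.0218 and 0.137.

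Neighbouring clusters of the trajectory drawn by the study were compared next, to ask where along it each gene changed. The study inferred this order from expression, so rose and fell mean differences between clusters here, not changes followed in time. Each library gave 1 sum of UMIs per cluster, and 2 sums were compared with 2 with the quasi-likelihood test of edgeR, adjusted after Benjamini and Hochberg over all genes tested. Genes with an adjusted p under 0.05 are spoken of as called. Clusters had been formed from the same counts, so these p-values are no independent evidence that clusters differ, and they cover library preparation only. Over the 9 comparisons below, 74 pairs of gene and comparison could be tested and 40 were called. Of all genes tested, 16.4% to 56.5% were called, depending on the comparison. Of the 40 calls, 23 stayed called in every alternative that gave a value for them, out of 8 alternatives with a test.

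On the first trajectory, from satellite cells in cluster 8 to myoblasts in cluster 1, FGFR4 rose and FGF7 fell. FGFR4 was at 0.977 and 1.01 in cluster 1 against 0.278 and 0.291 in cluster 8, a log2 fold change of 1.84 ± 0.06 (SE, adjusted p = 1.02e-06). FGF7 was at 0.375 and 0.345 against 1.60 and 1.60, a change of -2.12 ± 0.07 (adjusted p = 6.77e-07). The library values did not overlap in either gene. FGFR1 fell by 0.88 ± 0.13 and FGFR2 fell by 0.78 ± 0.25 on the log2 scale, SPRY1 rose by 0.35 ± 0.11 and SPRY2 rose by 0.68 ± 0.15. Of the 8 genes tested 6 were called, 3 in each direction, against 34.1% of all genes tested. The calls of FGFR2, SPRY1 and SPRY2 were lost with DESeq2 (adjusted p = 0.139, 0.208 and 0.0571), and SPRY2 was at -0.08 when cells were clustered anew without the listed genes. In that new clustering, clusters 8 and 5 had the same best match, a group of 2160 cells, so cluster 8 was not compared alone.

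From cluster 1 to the myocytes of cluster 3, none of the 8 genes tested rose and 4 fell, against 40.2% of all genes called. FGFR4 fell to 0.349 and 0.396 (-1.38 ± 0.06, adjusted p = 1.74e-05) and FGF7 to 0.181 and 0.171 (-0.99 ± 0.08, adjusted p = 0.000131). FGF2 fell from 0.0524 and 0.0626 to 0.0217 and 0.0256 (-1.25 ± 0.19), and SPRY1 by 0.47 ± 0.09. The receptor and both ligands thus decreased together at the first step at which MYOG was high. With the new clustering the calls of FGF2 and SPRY1 were lost (-0.59 and -0.21), and FGFR4 was at -0.77. FGFR1, at -0.35 ± 0.13 with an adjusted p of 0.0722, was called only when the library was a block (adjusted p = 0.00168), when doublets were left out or with the new clustering.

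From cluster 3 to cluster 12, the most differentiated cells, 4 of 8 genes fell and 1 rose, against 33.8% of all genes called. FGFR4 fell again, to 0.132 and 0.134 (-1.39 ± 0.11, adjusted p = 5.63e-05). FGFR1 fell from 0.106 and 0.114 to 0.0390 and 0.0527 (-1.16 ± 0.18, adjusted p = 0.00218). Neither gene had overlapping libraries. FGF7 fell by 0.46 ± 0.12 and SPRY1 fell by 0.45 ± 0.12, both lost with DESeq2 (adjusted p = 0.218 and 0.221). SPRY2 was the exception, at 0.148 and 0.141 in cluster 12 against 0.0993 and 0.0968 in cluster 3 (0.65 ± 0.13, adjusted p = 0.0055), and this call was lost with the new clustering (0.29, adjusted p = 0.114). With the library as a block FGFR2 (adjusted p = 0.0257) and SPRY4 (adjusted p = 0.0264) were also called, both lower.

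On the second trajectory, between clusters 8 and 5, which the study marked by PAX3, the largest change was that of FGF2. It fell from 0.0827 and 0.0712 in cluster 8 to 0.0346 and 0.0345 in cluster 5 (-1.15 ± 0.19, adjusted p = 0.00347). FGFR1 fell by 0.39 ± 0.11. FGF7 rose by 0.27 ± 0.05, SPRY2 by 0.57 ± 0.15 and FGFR4 by 0.40 ± 0.11. Of 7 genes tested 5 were called, against 28.5% of all genes. Of these calls only that of FGF2 held in every alternative that gave a value. FGFR4 was not called when doublets were left out (0.28, adjusted p = 0.128), and doublets made up 10.5% of cluster 5 and 0.483% of cluster 8.

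From cluster 5 to the PAX7-marked, dividing cells of cluster 4, FGFR4 and FGF7 moved in opposite directions. FGFR4 was at 0.559 and 0.572 in cluster 4 against 0.339 and 0.411 (0.57 ± 0.09, adjusted p = 0.00677), and FGF7 at 1.42 and 1.28 against 1.96 and 1.88 (-0.53 ± 0.06, adjusted p = 0.00201). These were 2 of 8 genes tested, against 16.4% of all genes. SPRY1 was at -0.32 ± 0.11 with an adjusted p of 0.0902, and at 0.00511 with the library as a block.

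From cluster 4 to the myoblasts of cluster 2, which carried the division marker MKI67 at 7.53 and 7.95, the same opposite changes were seen. FGFR4 rose to 0.872 and 0.891 (0.63 ± 0.05, adjusted p = 0.000202), and FGF7 fell from 1.42 and 1.28 to 0.425 and 0.364 (-1.79 ± 0.09, adjusted p = 3.75e-05). FGFR2 fell by 0.68 ± 0.16 and FGFR1 fell by 0.26 ± 0.07, and neither was called with DESeq2 (adjusted p = 0.13 and 0.316). With the new clustering the changes were larger, at 1.5 for FGFR4 and -2.45 for FGF7. The new group that stood for cluster 4 also held part of cluster 11, at a Jaccard index of 0.135, under the 0.25 needed for a match. Cluster 11 had FGFR4 at 0.219 and FGF7 at 2.27, and its part in the larger changes was not tested. In all 4 of 9 genes were called, against 30.2% of all genes. SPRY2, at 0.33 ± 0.12 with an adjusted p of 0.0865, reached 0.0123 with the library as a block.

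**Figure D2:**
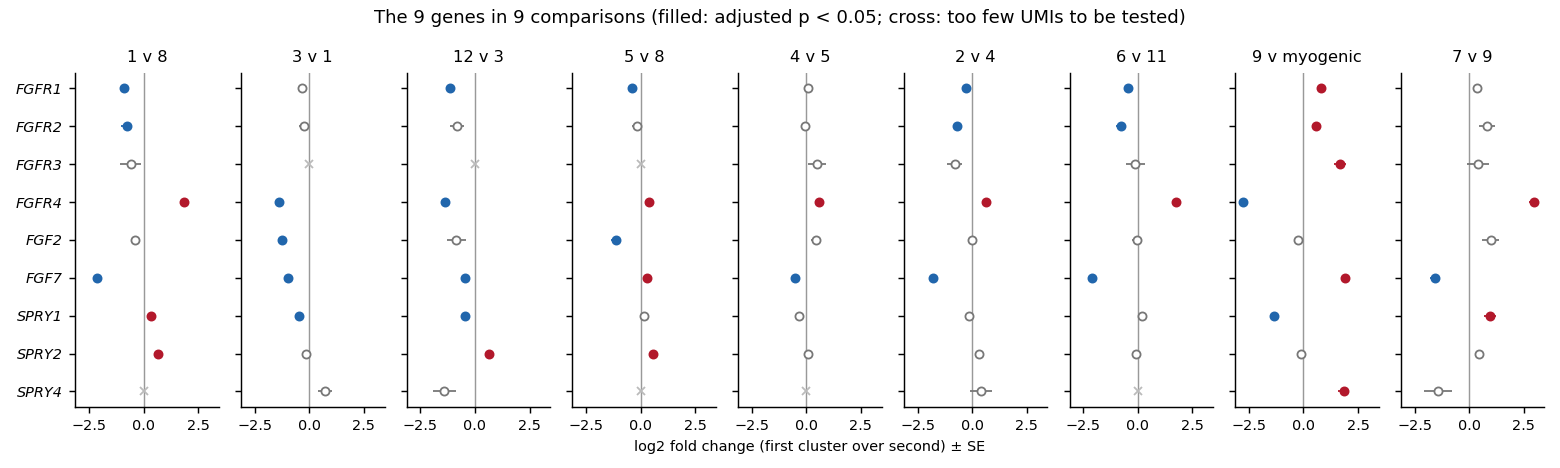
Log2 fold change ± SE (horizontal axis, first cluster over second) of each of the 9 genes (rows) in the 9 comparisons (panels). Filled points passed an adjusted p of 0.05 and crosses mark genes with too few UMIs to be tested. FGFR4 and FGF7 are called in all 9 panels, with FGFR4 from -2.76 to 2.95 and FGF7 from -2.12 to 1.92.

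Clusters 6 and 11 have no identity in the study and differed in MYOD1, at 5.75 and 1.35. They also differed in the receptor and the ligand. FGFR4 was at 0.703 and 0.720 in cluster 6 against 0.236 and 0.202 in cluster 11 (1.76 ± 0.08, adjusted p = 2.67e-05), and FGF7 at 0.458 and 0.545 against 2.13 and 2.42 (-2.12 ± 0.10, adjusted p = 2.2e-05). Neither cluster is on the study's trajectory. FGFR1 was lower by 0.44 ± 0.10 and FGFR2 by 0.78 ± 0.20 in cluster 6 than in cluster 11, and both were lost with DESeq2. These were 4 of 8 genes tested, against 16.5% of all genes. Called doublets made up 15.3% of cluster 6 and 3.91% of cluster 11, and their part in the result was not tested beyond leaving them out, after which the calls of FGFR4 and FGF7 were kept. The difference of cluster 2 from 4 was then set against that of 6 from 11, an interaction added after the levels had been seen. This interaction was called for 1 of 9 genes, FGFR4, against 9.28% of all genes.

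Cluster 9, called fibro-adipogenic, was compared with the 7 clusters called myogenic, summed. FGFR4 was at 0.0909 and 0.0862 against 0.574 and 0.610 (-2.76 ± 0.07, adjusted p = 8.66e-06) and SPRY1 at 0.0662 and 0.0845 against 0.189 and 0.182 (-1.33 ± 0.11, adjusted p = 0.000323). FGF7 was at 3.01 and 3.11 against 0.821 and 0.771 (1.92 ± 0.05, adjusted p = 9.15e-06), and FGFR1 at 0.294 and 0.320 against 0.171 and 0.174 (0.81 ± 0.06, adjusted p = 0.000204). No library of one side overlapped the other in these genes. FGFR2 was higher by 0.57 ± 0.15, FGFR3 by 1.68 ± 0.26 and SPRY4 by 1.85 ± 0.25, while FGF2 (-0.25 ± 0.14) and SPRY2 (-0.12 ± 0.08) did not pass the test. In all 7 of 9 genes were called, 5 higher and 2 lower, against 56.5% of all genes, and all 7 held in every alternative. Doublets made up 13% of cluster 9, and without them the difference of FGFR4 was -4.12. It was -2.06 with the new clustering.

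Clusters 7 and 9 share the name fibro-adipogenic in the study but differed in FGFR4, at 0.792 and 1.12 in cluster 7 (2.95 ± 0.20, adjusted p = 2.84e-05). FGF7 was at 1.04 and 1.86 in cluster 7 against 3.01 and 3.11 in cluster 9 (-1.56 ± 0.23, adjusted p = 0.00105). The difference of FGFR4 was 4.31 without doublets and 2.36 without cells under 2000 UMIs. SPRY1 was higher in cluster 7 by 0.97 ± 0.27, which was not called without cells under 2000 UMIs (1.04, adjusted p = 0.107). Of 9 genes 3 were called, against 56.5% of all genes, but 7 were called with plain library totals and 5 with 1 fit over all clusters. Plain totals also called more of all genes higher, 4587 against 2864, and fewer lower, 1904 against 3229. The libraries of cluster 7 spread widely. FGF2 was at 0.99 ± 0.38 with an adjusted p of 0.0567, and at 0.0464 with the library as a block.

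FGFR4 and FGF7 moved in opposite directions in some comparisons and together in others. Their overlap was also looked at within clusters. Each of 15996 cells with at least 5000 UMIs was thinned to 5000 UMIs, which left out 3100 shallower cells. In replicate 1, 17.5% of thinned cells had a UMI of FGFR4 alone, 23.8% of FGF7 alone and 3.82% of both. In replicate 2 the shares were 18.6%, 23.5% and 4.32%. A gene without a UMI after thinning may still be expressed in that cell, so these are not shares of expressing cells. FGFR4 was found in 22.1% of the thinned cells and in 40.6% of all cells unthinned, and FGF7 in 27.7% and 41.8%. Cells with both genes numbered 320 and 329, against 388.1 and 391.9 expected if the genes were independent within each cluster and library, a ratio of 0.832 ± 0.0107. Without doublets the ratio was 0.840 ± 0.0196. Among the 36 pairs of the 9 genes, 14 had at least 30 expected cells per library, and their ratios ran from 0.832 for this pair to 1.24 for FGFR1 with SPRY1 (77 and 70 cells against 62.1 and 56.5), which was 0.838 when cells were thinned to 2000 UMIs. The other 12 ratios lay between 0.890 and 1.22, and 10 of the 14 moved by more than the spread of the libraries when cells were thinned to 2000 UMIs. At that depth 636 of 17198 cells had a UMI of FGFR1 and 592 of SPRY1, so few cells can hold both. The minimum of 30 expected cells was not applied there. These ratios are a description, without a test.

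Shares of cells with a UMI followed the levels. After thinning, FGFR4 was found in 37.4 ± 0.718% of the cells of cluster 1 and 2.77 ± 0.191% of cluster 9, and FGF7 in 65.1 ± 0.644% of cluster 9 and 3.42 ± 1.15% of cluster 12. Free RNA gives UMIs to cells that do not make a gene. As a yardstick, MYOG was found in 98.4% of the thinned cells of cluster 12 and in 7.15 ± 1.23% of cluster 9, with median depths of 19113 and 23011 UMIs before thinning. FGFR4 in cluster 9 and FGF7 in cluster 12 were below that share. So was FGFR4 in cluster 12 (5.38 ± 0.680%), the end of its fall from cluster 3. Others below it included FGFR1 in clusters 12 (1.96 ± 1.84%), 3 (4.84 ± 0.527%) and 1 (6.72 ± 1.01%). SPRY1 in clusters 9 (3.44 ± 0.284%) and 12 (5.71 ± 0.679%), FGF7 in cluster 3 (6.39 ± 1.29%) and most shares of the scarcer genes were below it too. Expression in single cells was not read from shares this low, except in the co-detection ratios above. Those ratios took in FGFR2, FGF2 and SPRY2, found in 2.77%, 1.91% and 5.65% of all thinned cells. What free RNA adds to the ratios was not tested. MYOG has its own abundance and doublets add to such shares too, so how much of them is free RNA was not tested. Without thinning, FGFR4 was found in 12.5 ± 0.0660% of the cells of cluster 9 and MYOG in 23.5 ± 1.22%.

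**Figure D3:**
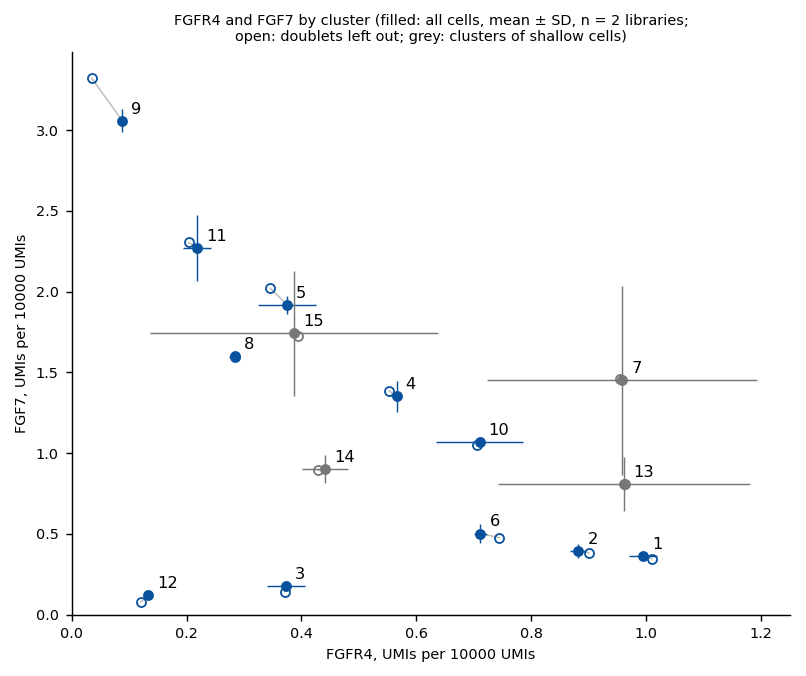
Level of FGF7 (vertical axis) against that of FGFR4 (horizontal axis), both in UMIs per 10000 UMIs, for the 15 numbered clusters. Filled points show the mean ± SD of 2 libraries, open points the values without called doublets, and grey points the clusters of shallow cells. Cluster 9 lies at 3.06 for FGF7 and 0.0885 for FGFR4, cluster 1 at 0.360 and 0.994, and cluster 12 is low in both.

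Over the 15 clusters, with libraries summed, the genes with the pattern most like each member were found by Pearson's correlation of depth-scaled log2 UMI counts among 5614 genes. The points share their libraries and differ in depth, so the values describe these clusters only. FGFR4 was closest to HEYL (r = 0.928), a target of Notch signalling, followed by ITIH5 (0.842) and EPHB4 (0.831). FGF7 was closest to KCNK12 (0.964), PHLDA1 (0.956) and PCOLCE2 (0.940). SPRY1 was closest to HTRA3 (0.890), PTPRR (0.860) and MYF5 (0.855), a myogenic factor. FGFR1 was closest to PLBD2 (0.964), CERS2 (0.948) and RIPK2 (0.938), and FGFR2 to CD46 (0.955), PKN2 (0.943) and KCTD20 (0.938). Among the genes closest to FGF2 were SESTD1 (0.773) and CACFD1 (0.762), and SPRY2 was closest to TSSC4 (0.858), ELAVL1 (0.857) and PUS1 (0.855). Over the deep clusters alone the r of these last genes with SPRY2 was 0.745, 0.778 and 0.764. Some other values were higher there, such as 0.953 for HEYL with FGFR4. Among the 9 genes themselves, FGFR1 went with FGF7 (r = 0.793) and FGFR4 with SPRY1 (0.787), while FGFR4 and FGF7 had an r of -0.149. Over the 11 deep clusters these were 0.890, 0.776 and -0.240.

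The other genes of the pathway followed no single direction along the first trajectory. Where a count under an alternative setting lacks the share of all genes called there, it is not read as a result about the pathway. From cluster 8 to 1, 10 of 58 genes tested rose and 16 fell, which is 44.8% called against 34.1% of all genes, and 17 were called with DESeq2 and 12 with the new clustering. From 1 to 3, 9 of 57 rose and 17 fell (45.6% against 40.2%), and DESeq2 called 15. From 3 to 12, 7 of 53 rose and 14 fell (39.6% against 33.8%). The immediate early gene EGR1, whose transcription answers ERK, rose from 1.68 and 1.44 in cluster 8 to 2.82 and 2.77 in cluster 1 and to 3.66 and 3.61 in cluster 3. FOS, another such gene, rose by 0.91 ± 0.10 and then by 0.68 ± 0.07. DUSP6, a phosphatase that switches ERK off, rose from 0.0961 and 0.0921 in cluster 1 to 0.227 and 0.256 in cluster 3 (1.39 ± 0.09, adjusted p = 5.65e-05), at the step at which FGFR4, FGF2 and FGF7 fell. PHLDA1 fell at both steps, by 0.79 ± 0.09 and 0.77 ± 0.14. FGF10 rose by 0.67 ± 0.11 from cluster 8 to 1, and SDC3, a syndecan that can carry FGFs, fell from 0.119 and 0.113 to 0.0507 and 0.0475. GPC4, a glypican, fell by 0.85 ± 0.25.

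HS6ST1, which sulphates the heparan chains that FGFs bind, fell by 1.29 ± 0.07 from cluster 1 to 3, and the kinase gene ARAF by 0.66 ± 0.04. At the last step, where 33.8% of all genes were called, 5 of 20 adaptor and kinase genes rose and 1 fell, a share no higher than that of all genes. MAP2K2 was at 0.80 ± 0.06 and MAP2K1 at 0.56 ± 0.06. Of 9 ERK-responsive genes none rose and 5 fell, among them CCND1, a cyclin of dividing cells (-1.44 ± 0.08), and MYC (-0.87 ± 0.11). FGF10 fell by 1.79 ± 0.19, to 0.0488 and 0.0591.

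On the second trajectory 7 of 58 pathway genes rose and 9 fell from cluster 8 to 5, 27.6% called against 28.5% of all genes. The count was 26 with the library as a block, without a share of all genes to set beside it. With DESeq2 it was 7. DESeq2 called 1062 of all genes higher and 642 lower, against 1781 and 1339 in the main fit. From 5 to 4, 1 of 58 rose and 6 fell, 12.1% against 16.4% of all genes, and the count was 16 with the block, 12 with the new clustering and 4 without a filter on low counts. From 4 to 2, 7 of 59 rose and 14 fell (35.6% against 30.2%, and 33 called with the block). From 8 to 5, where 28.5% of all genes were called, 5 of 9 ERK-responsive genes rose and none fell, with FOSL1 at 0.92 ± 0.15, PHLDA1 at 0.61 ± 0.09 and EGR1 at 0.60 ± 0.07. Of 19 adaptor and kinase genes tested at this step none rose and 7 fell, among them SHC1, an adaptor, by 0.27 ± 0.06. HS6ST1 fell by 0.44 ± 0.12. From 5 to 4 FOSL1 rose by 0.39 ± 0.11, while PHLDA1 fell by 0.93 ± 0.08, CCND1 by 0.52 ± 0.11 and IER3 by 0.33 ± 0.06. From 4 to 2 DUSP6 rose by 0.86 ± 0.13, FOS by 0.40 ± 0.11 and EGR1 by 0.39 ± 0.04, and PHLDA1 fell by 0.85 ± 0.09, ARAF by 0.76 ± 0.04 and HS6ST1 by 0.61 ± 0.07.

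**Figure D4:**
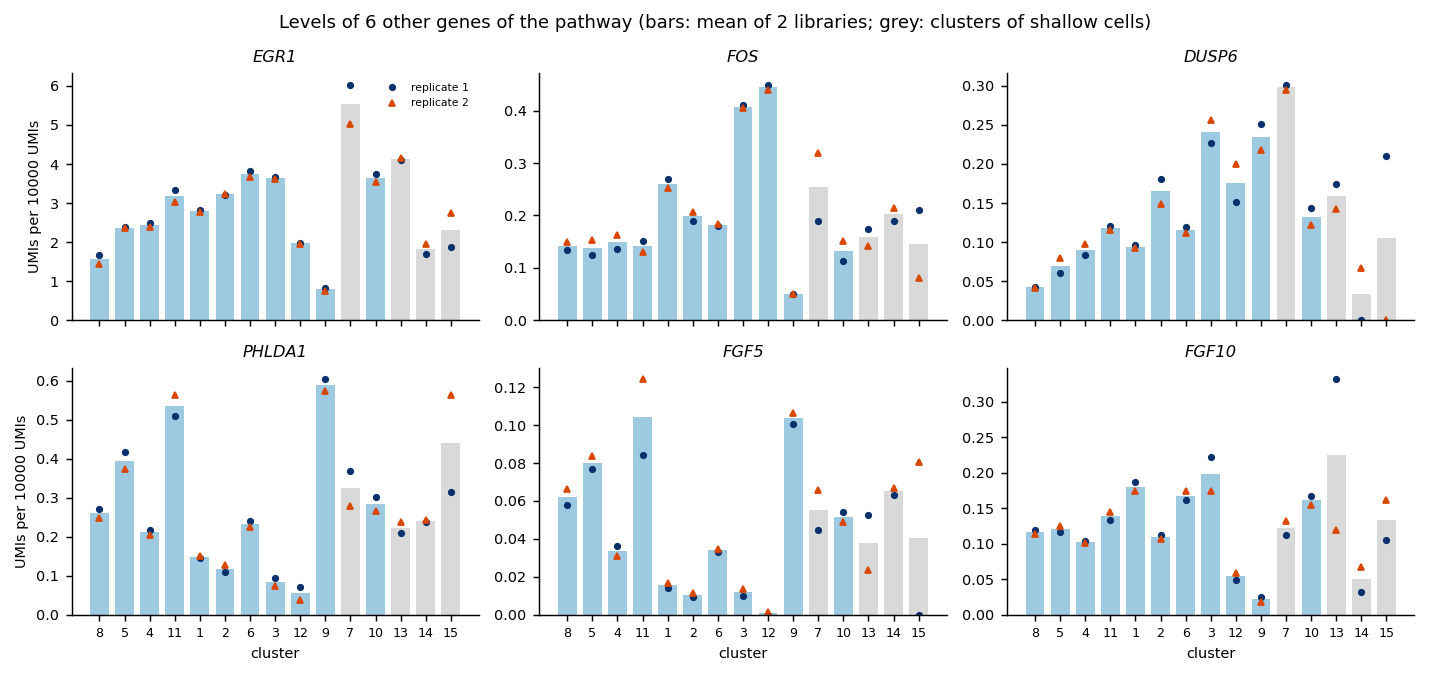
Levels (UMIs per 10000 UMIs, vertical axis, from 0) of 6 other pathway genes in the 15 clusters (horizontal axis), chosen for the plot after their values were seen. Bars are means of 2 libraries, points the libraries, and grey bars the clusters of shallow cells. EGR1 and FOS are lowest in cluster 9 among the deep clusters, where PHLDA1 is high.

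Between clusters 6 and 11, 6 of 57 pathway genes were higher in cluster 6 and 8 lower, 24.6% against 16.5% of all genes, with 25 called with the block and 6 with DESeq2. PHLDA1 was lower by 1.15 ± 0.09 in log2, FGF5, another ligand, by 1.55 ± 0.23 and IER3 by 0.79 ± 0.05, as FGF7 was. SDC4 was higher by 0.53 ± 0.10, FOS by 0.43 ± 0.11 and EGR1 by 0.30 ± 0.05. In cluster 9 against the myogenic clusters 23 of 62 genes were higher and 18 lower, 66.1% against 56.5% of all genes. SULF2, which removes sulphate from heparan chains, was at 0.104 and 0.112 against 0.00917 and 0.0107 (3.41 ± 0.14, adjusted p = 3.66e-05). EXT1, which builds these chains, and ETV1, a transcription factor, were higher by 2.06 ± 0.26 and 2.01 ± 0.09. FGF10, FOS and EGR1 were lower, at -2.64 ± 0.16, -2.27 ± 0.07 and -1.82 ± 0.05. Against cluster 9, cluster 7 had 19 of 56 genes higher and 16 lower (62.5% against 56.5%), and 23 were called without cells under 2000 UMIs. HSPG2 (2.67 ± 0.16), EGR1 (2.29 ± 0.12) and GPC1 (2.11 ± 0.09) were higher and MAPK3 (-1.66 ± 0.14), ETV1 (-1.65 ± 0.28) and HRAS (-1.58 ± 0.12) lower.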

How the data were processed

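Bovine satellite cells were profiled in 2 Chromium 3′ libraries. Reads were aligned to ARS-UCD1.2, and UMI counting and the merging of both libraries by the authors used Cell Ranger 3.0.2 (version from the submitters' processing notes). The deposited counts are whole UMI counts per gene and cell, with no scaling per cell. The study's commands merged the libraries with normalization by mapped reads. Library totals and the spread between libraries are therefore those after this step, not of raw counts. The authors also deposited, per cluster, an average UMI count per gene on a scaled signal, with log2 fold changes and p-values of each cluster against all other cells. These last columns hold the study's own comparisons and were not used.

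Cluster numbers were deduced from the averages, which convert to whole UMI sums. All 19096 cells received a cluster, and none of 252240 gene and cluster sums differed from the deposited one. The library of a cell was read from its barcode suffix. UMIs were summed per library and cluster and tested with edgeR 4.0.16 in R 4.3.3 (quasi-likelihood, TMM, filterByExpr, Benjamini-Hochberg). SEs are the log2 fold change divided by the square root of F. Sums of 1 library pair by construction. Their deviations correlated at 0.2 to 0.621 among genes that had 20 or more UMIs in every sum. The fit had no block and the block was an alternative, as were DESeq2 1.42.0, plain library totals, no filter, 1 fit over all clusters, no doublets, no cells under 2000 UMIs, Leiden clusters (scanpy 1.11.5) built without the listed genes, and each library alone. Tests were checked on counts drawn with known changes, and where the drawn spread varied from gene to gene, more calls were false than the nominal share. Scrublet's threshold in replicate 1 called no cell, so that of replicate 2 (0.272) served both, chosen after this was seen. It gave 1153 doublets (6.04%), which were kept.

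The genes, lists and comparisons were chosen with earlier results of these data known. Named pathway genes are the called genes with the largest change, up to 3 per direction, at 0.1 UMI per 10000 or more in either group. The 3 genes most like each member with at least 1000 UMIs were sought among genes with at least 5000. Counts behind a limit for 0 were 3, for counting error only. FGF13 has 2 identifiers, tested separately. A few genes that these rules select are not reported here.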

Additional observations from a re-analysis of the deposited data

Results flagged for a closer look

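The change of FGFR4 between clusters with less and more MYOD1 was not the same in both pairs of clusters. Its log2 level was higher by 0.63 ± 0.05 in cluster 2 than in cluster 4, and by 1.76 ± 0.08 in cluster 6 than in cluster 11. The first change minus the second was -1.12 ± 0.09 (SE, edgeR's quasi-likelihood test of the interaction, adjusted p = 0.000205), and this contrast was called for 9.28% of the genes tested. It was added after the levels had been seen. FGF7, with -1.79 and -2.12 in these pairs, gave a difference of 0.34 ± 0.14 (adjusted p = 0.184). Under 5 alternatives the value of FGFR4 ran from -1.22 without doublets to -1.06 with plain library totals. The new clustering gave no value for this difference, since cluster 11 had no match in it, but it moved the change from 4 to 2 to 1.5, so the dependence of the difference on the cluster borders was not tested. Called doublets were 15.3% of cluster 6, and MYOD1 was at 6.72 and 2.71 in clusters 2 and 4 and at 5.75 and 1.35 in clusters 6 and 11. Both pairs come from the same libraries.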

How the results depend on the processing

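Both libraries come from 1 calf and the same cells, so no setting measures the spread between animals. Of 40 calls 23 were kept in every alternative that gave a value for them, 8 at most. Among them were 8 of 9 for FGFR4, 7 of 9 for FGF7, 3 of 6 for FGFR1, 1 of 5 for SPRY1 and none of 3 for SPRY2. DESeq2 called 3 of the 9 genes between clusters 1 and 8 and 3 between 12 and 3, where the main fit tested 8 each. It called 2 each for 5 against 8, 2 against 4 and 6 against 11, where the main fit tested 7, 9 and 8. It also called fewer of all genes. In 1 against 8 these were 1223 higher and 1185 lower, against 1921 and 1891 in the main fit. In 6 against 11 they were 590 and 503, against 966 and 852. In 12 against 3 they were 1423 and 845, against 1963 and 1687. In 2 against 4 they were 1108 and 1042, against 1679 and 1818. In 3 against 1 they were 1611 and 1254, against 2394 and 2168. In 5 against 8 they were 1062 and 642, against 1781 and 1339. The pathway counts of DESeq2 were 17 for 1 against 8, 15 for 3 against 1, 7 for 5 against 8 and 6 for 6 against 11. With the library as a replicate block the pathway counts were 26 for 5 against 8, 16 for 4 against 5, 33 for 2 against 4 and 25 for 6 against 11. The block added 6 calls among the 9 genes, given with the results, and changed no other call of theirs. With no filter on low counts the pathway count of 4 against 5 was 4. The new clustering gave 12 pathway genes for 1 against 8 and 12 for 4 against 5, and reversed SPRY2 in 1 against 8 (-0.08, adjusted p = 0.718). Clusters 5 and 8 matched the same new cluster, which stood for either in these comparisons, so 5 against 8 had no value. Nor had 6 against 11, since cluster 11 matched none at a Jaccard index of 0.25. The matches used had indices from 0.299 for cluster 5 to 0.788 for cluster 9. In 7 against 9, 7 of the genes were called with plain totals and 5 with 1 fit over all clusters, and 23 pathway genes without cells under 2000 UMIs. For alternatives other than DESeq2 and plain totals, the share of all genes called is not given here, so their counts lack that background. The cause of these moves was not tested.

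Plain totals shifted the median of all genes by 0.51 (log2) in 7 against 9, where the higher share of calls went from 47% to 70.7%, and by -0.10 in 12 against 3, where it went from 53.8% to 38%. In 6 against 11 it went from 53.1% to 37.2%. Leaving out doublets moved the log2 ratio of FGFR4 in cluster 1 to cluster 9 from 3.49 to 4.86 and of FGF7 in 9 to 12 from 4.67 to 5.42. As mean UMIs per cell, which also carry cell depth, the log2 ratios were 3.04 for FGFR1 (9 to 12), 1.45 for FGFR2 (10 to 12), 2.64 for FGFR4, 4.97 for FGF7, 0.84 for SPRY1 (1 to 9) and 0.27 for SPRY2 (10 to 8). SPRY2 was at 1.10 to 1.12 (log2) with each library alone. Log2 ratios of shares of cells, for the same clusters, were 2.39 unthinned and 3.96 thinned to 2000 UMIs for FGFR4, 2.71 and 5.09 for FGF7, 0.71 and 2.19 for SPRY1, and 0.26 and 1.93 for SPRY2. Thinned to 2000, co-detection ratios (not log2) were 0.849 for FGFR1 with FGFR4, 0.838 for FGFR1 with SPRY1, 1.51 for FGFR1 with SPRY2, 1.18 for FGFR2 with FGFR4, 1.13 for FGFR2 with FGF7, 0.763 for FGFR4 with FGF7, 1.18 for FGFR4 with SPRY1, 0.791 for FGFR4 with SPRY2, 0.930 for FGF7 with SPRY1 and 1.77 for SPRY1 with SPRY2. Without doublets they were 1.25 for FGFR1 with SPRY1 and 1.12 for FGFR1 with SPRY2.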

Other observations

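Of the 82 listed pathway genes, 3 were not in the feature list and 7 (FGF3, FGF4, FGF6, FGF19, FGF20, FGFBP1 and SPRY3) had no UMI among the 283449867 of both libraries, which allows a level of up to 0.000106 UMIs per 10000 over all cells. The pairs of a member with a marker below were added after the levels had been seen. In cells thinned to 5000 UMIs, FGFR4 and MYOD1 were found together in 1441 and 1402 cells against 1343 and 1294 expected within cluster and library, a ratio of 1.08 ± 0.00743. FGF7 and MYOD1 were found together in 1019 and 964 cells against 1140 and 1059, a ratio of 0.902 ± 0.0113. Both are descriptions without a test.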
